A study of Mus musculus with 20 samples.

Results

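The transcripts described here are 10 RNAs known from other work to be held in the nucleus or to keep introns after processing: Malat1, Neat1, Kcnq1ot1, Ccnl1, Ccnl2, Clk1, Clk4, Nktr, Son and Pnisr. They were picked by symbol, as 10 of the 17101 genes in the normalized count table, because their RNA was lower in Dnmt3a-knockout (KO) than in wild-type (WT) donor T cells. The KO against WT difference therefore chose them and is given as a description with no test. For the members, tests were made only for differences between T cell subsets within a genotype, and for how that subset difference varied with genotype. For other genes, KO against WT p-values are given too.

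Some long noncoding RNAs stay at the site of transcription or in nuclear bodies: MALAT1 concentrates in nuclear speckles, NEAT1 builds paraspeckles, and KCNQ1OT1 spreads in cis over an imprinted domain. Other transcripts are protein coding but keep particular introns after polyadenylation, and such detained-intron RNA waits in the nucleus until it is spliced or degraded. CLK kinases and cyclin L act on the splicing machinery and are among the best known genes with such introns, and T cell activation is accompanied by broad changes in intron retention.

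T cell-depleted bone marrow and T cells of B6 donors were transplanted into irradiated F1 recipients, a parent-to-offspring model of graft-versus-host disease, and donor T cells were sorted from the spleen on day 10. KO donors were DNMT3a KO (CD4-Cre 2loxP), so deletion was driven by the Cd4 promoter in developing T cells, and WT donors were DNMT3a WT littermates. Donors were 6 to 12 and recipients 8 to 12 weeks old in every group. The 5 groups were KO CD4, KO CD8 and KO CD4 and CD8 double-positive (DP) cells numbered 1 to 4, and WT CD4 and WT CD8 cells numbered 2, 3, 5 and 6, with 4 libraries each. The labels do not state what a number marks. Same-numbered libraries of a genotype deviated together, so a number is taken below to mark an animal. A WT DP group was not analysed here, so DP cells were compared only with other KO cells. The sort still allowed a minority of other cells, and these are bulk libraries, so fewer cells of a type and less RNA per cell cannot be told apart. Values below are normalized counts, in order of animal number, and differences are on the log2 scale of the normalized count plus 1.

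Dnmt3a, the targeted DNA methyltransferase, was lower in every KO library than in every WT library, with 1385 to 1658 in KO CD4, 1287 to 2007 in KO CD8 and 650.4 to 1571 in KO DP cells. The WT libraries held 4690.0 to 5171 in CD4 and 3542 to 3812 in CD8 cells. Cd4 was at 44804 or more in each CD4 library, at 458 or less in each CD8 library, and at 8758 to 15351 in the DP libraries. Cd8a was at 41594 or more in CD8 and DP libraries and at 586 or less in WT CD4 libraries, and in KO CD4 cells it ranged from 78.3 to 3771. Reads on genes ran from 37547651 to 46966318 per library. Counting noise of 1 library, at the mean reads of a member in a group, was at most 0.0687 on the log2 scale, below the median spread of the members between libraries of a group, which ran from 0.10 in WT CD8 to 0.41 in KO CD8.

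Libraries that stood apart were KO DP from animal 3 and KO CD8 from animal 1. KO DP from animal 3 had reads on 11783 genes against 13203 or more in every other library, and 16.9% of its reads lay on ribosomal protein genes against 11.3% or less elsewhere. Its 10 members took 0.0651% of reads, the lowest share of the 20 libraries. KO CD8 from animal 1 had the highest member share among KO libraries, 0.180%, and its summed member level of 78850.2 compares with at most 58602 in any other KO library. Genes with reads also differed by genotype, at 11783 to 14198 in KO and 14421 to 14677 in WT libraries, without overlap. The part of this in the member differences was not tested.

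Genes that mark other cells or handling moved with genotype too. Of all genes tested, 9.77% fell in KO CD4 and 12.5% in KO CD8 cells. Of 7 heat shock genes, 3 fell in each, and Hspa1a, an inducible chaperone, differed by -7.26 ± 0.56 (SE) in KO CD4 (adjusted p = 0.000166) and -7.42 ± 0.71 in KO CD8 cells (adjusted p = 0.000593), lower in every KO library. Of 9 immediate early genes, 7 fell in each subset, and Fosb, an AP-1 component, differed by -4.30 ± 0.44 and -4.12 ± 0.58. Summed immediate early levels were 17334 to 28686 in KO CD4 against 35661 to 57918 in WT CD4 libraries, and 11326 to 16611 in KO CD8 against 23188 to 34022 in WT CD8 libraries. The summed heat shock levels were 138500 to 183750.1 in KO CD4 and 178286 to 192748 in WT CD4 libraries, and 135063 to 188466 and 168870.2 to 188423 in KO and WT CD8 libraries. In KO DP cells they were 140733 to 196688, with immediate early sums of 11871 to 25307. Junb was the most abundant of the immediate early genes, at 4880.2 to 21792, and Hspa8 of the heat shock genes, at 107679 to 143500.5 across libraries. The part of either list in the member differences was not tested.

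Of 6 B cell markers 5 were in the table, and Cd79b was the most abundant at 40.1 to 2245 across libraries. Their sum was 646 to 1121 in KO CD4, 1426 to 2282 in KO CD8, 1620.4 to 2250.3 in KO DP, 55.7 to 89.0 in WT CD4 and, for WT CD8 libraries, 165 to 260.0. The defining markers Ms4a1 and Pax5 reached at most 4.39 and 7.35 in any library and were at 0 in most KO libraries. Of 3 NK markers 2 were in the table, with Klrb1c the more abundant, and their sum was 220 to 1547 in KO CD4, 676 to 3066 in KO CD8, 665 to 2602 in KO DP, 111 to 177 in WT CD4 and, for WT CD8 libraries, 70.1 to 319. Ncr1, which defines NK cells, was at most 12.9. The 6 myeloid markers summed to 1031 to 3159 in KO CD4, 2530 to 5759 in KO CD8, 2437 to 7338 in KO DP, 2570 to 3323 in WT CD4 and, for WT CD8 libraries, 3417 to 6010.2. Itgam was the most abundant of them, at 150.4 to 4216 across libraries. Its mean was 2241 in KO CD8, where the highest library held 4216, against 1558 in WT CD8 libraries. The medians were 1795 and 1557. Others of the list went the other way. Medians of S100a8 were 65.8 in KO CD4 and 54.5 in KO CD8 against WT medians of 646 in CD4 and 472 in CD8, and those of Lyz2 were 63.0 and 86.1 against 655 and 563. The highest KO CD4 and KO CD8 libraries held 793 and 468 for S100a8 and 680 and 716 for Lyz2. The 8 T cell markers summed to 196957 or more in every library. The part of any of these markers in the results was not tested.

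Of the members, 3 are noncoding and 7 are coding, and Malat1 and Neat1 are neighbours on chromosome 19. Per kilobase of annotated exon, Malat1 was first in both WT groups, at 5683 in CD4 and 3434 in CD8 cells, and Son in the KO groups, at 2890.4 in CD4, 2719 in CD8 and 2229 in DP cells. Pooled over all libraries, whose group means differ, levels were 2770.5 for Son and 2580 for Malat1, then Ccnl2 (1682), Clk1 (1390), Ccnl1 (1296), Nktr (865), Clk4 (851) and Pnisr (730.4). The median gene stood at 375 normalized counts per kilobase, above the pooled levels of Neat1 (226) and Kcnq1ot1 (8.82). By group, Neat1 was above that median in WT CD8 cells, at 583, and below it in the others, at 86.5 to 217. These Neat1 levels used a length of 20773 bases, the whole gene, although it has 2 curated transcripts. Reads from a shorter transcript would give a higher level per kilobase of that transcript. Counts by gene do not tell the transcripts apart, so the place of either against the median gene is not known. GENCODE lists transcripts with a retained intron for 6 of the 7 coding members, with 8 for Ccnl1 and Nktr, 7 for Clk1 and Clk4, 3 for Ccnl2, 2 for Son and 0 for Pnisr. The same holds for 59.8% of 11179 coding genes, whose median number of such transcripts is 1 against 7 for the coding members. Counting used exons only, so neither intron retention nor nuclear location was measured. For Clk1, introns 3 (chr1:58420212-58421082) and 4 (chr1:58419734-58420120) of the selected transcript lie inside an exon of another curated transcript, so reads from them can count for the gene where that exon was used. Such introns occur in 1.66% of 11151 coding genes.

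Malat1, the abundant speckle RNA, lies at chr19:5795690-5802672 on the minus strand (GRCm38). WT CD4 libraries held 46482, 33244, 24971 and 54049, and WT CD8 libraries held 21488, 31241, 19753 and 23429.9. KO CD4 libraries held 7915, 10124, 6901 and 8556, KO CD8 libraries 22537, 8271, 7503 and 9258, and KO DP libraries 12590.3, 3605, 2777 and 5593. Every KO CD4 library was below every WT CD4 library, while KO CD8 from animal 1 lay inside the WT CD8 range and the other 3 lay below it. Animal 1 was also the highest of the KO DP libraries, and animals 2 and 3 were the lowest. Group means ran in the order WT CD4, WT CD8, KO CD8, KO CD4 and KO DP, and libraries of each pair of neighbours in that order overlapped. The described KO minus WT difference was -2.20 ± 0.22 in CD4 cells and -1.15 ± 0.31 in CD8 cells, or -1.51 in CD8 cells without animal 1. Within WT, Malat1 was higher in CD4 cells by 0.69 ± 0.20, in 4 of 4 animals (limma adjusted p = 0.0125). The exact permutation p was 0.0571, and the smallest that 4 against 4 libraries allow is 0.0286. This exact test, here and below, shuffled libraries freely and did not use the pairing by animal.

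Neat1, the scaffold of paraspeckles, lies 22035 bases from Malat1 at chr19:5824708-5845480 on the same strand. RefSeq lists 2 curated transcripts for it. Counts by gene do not tell them apart, so the differences below belong to the gene and not to either form. WT CD4 libraries held 3715, 4396, 3367 and 6573, and WT CD8 libraries held 13261, 11467, 10890.5 and 12843. KO CD4 libraries held 1271, 2710.1, 1399.9 and 1804, KO CD8 libraries 4634, 3577, 2049 and 2254, and KO DP libraries 2839, 1589, 1314 and 1878. WT CD8 libraries stood above all other libraries, and every KO library of a subset was below every WT library of it. The described KO minus WT difference was -1.34 ± 0.25 in CD4 and -2.03 ± 0.23 in CD8 cells. Within WT, Neat1 was 2.77-fold lower in CD4 than in CD8 cells, a log2 difference of -1.47 ± 0.16 (adjusted p = 5.64e-06, exact p = 0.0286, lower in 4 of 4 animals). Malat1 and Neat1, neighbours on 1 strand, thus stood on opposite sides of 0 in this comparison. Within KO, the CD4 minus CD8 difference of Neat1 was -0.78 ± 0.30 (adjusted p = 0.233), and with the animal as a block it passed the threshold (adjusted p = 0.0347, lower in 4 of 4 animals).

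**Figure D1:**
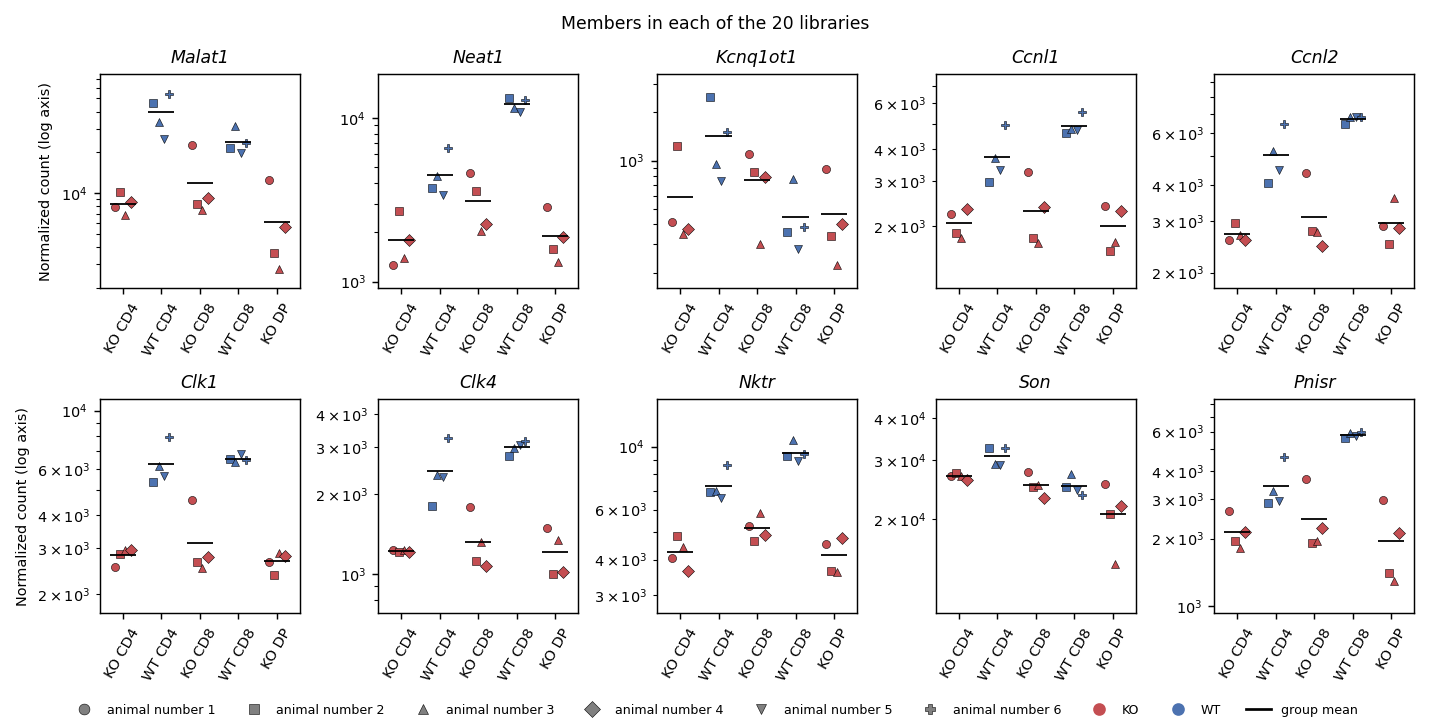
Normalized counts (log axis) of the 10 members in each of the 20 libraries, by genotype and subset. Symbols give the animal number within a genotype, colours the genotype, and bars the group mean of 4 libraries; the circle of KO CD8 stands apart for Malat1 (22537), Ccnl2 and Clk1.

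Kcnq1ot1, the antisense RNA of the imprinted Kcnq1 domain, spans chr7:143213111-143296547 on the minus strand, inside Kcnq1 on the plus strand. Reads were counted by strand. WT CD4 libraries held 2472, 952, 744 and 1497, and WT CD8 libraries held 359, 763, 280.4 and 385. KO CD4 libraries held 417, 1239, 350.4 and 373, KO CD8 libraries 1101, 846, 302 and 792, and KO DP libraries 884, 336, 223 and 403. Libraries scattered widely within every group, and KO and WT overlapped in both subsets. The described KO minus WT difference was -1.32 ± 0.44 in CD4 cells but 0.73 ± 0.42 in CD8 cells, so lower RNA in KO cells does not hold for Kcnq1ot1 in CD8 cells. Within WT it was 3.06-fold higher in CD4 than in CD8 cells, a log2 difference of 1.61 ± 0.34 (adjusted p = 0.00167, exact p = 0.0571, higher in 4 of 4 animals). Within KO the same difference was -0.43 ± 0.48 (adjusted p = 0.763), at -0.86 to -0.20 with 1 library left out. The KO minus WT value in CD8 cells was then at 0.50 to 1.12.

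The cyclins Ccnl1 and Ccnl2 pair with CDK11 and act in transcription and splicing. Ccnl1 was at 2976 to 4963 in WT CD4, 4589 to 5571 in WT CD8, 1809 to 2338 in KO CD4, 1723 to 3256 in KO CD8 and 1606 to 2399 in KO DP libraries. Ccnl2 was at 4062 to 6463, 6433 to 6839, 2578 to 2956, 2471 to 4390.1 and 2505 to 3607 in the same order. For both genes each KO library was below each WT library of its subset, and animal 1 was the highest KO CD8 library for both. The described KO minus WT differences were -0.83 and -0.88 in CD4 and -1.15 and -1.16 in CD8 cells for Ccnl1 and Ccnl2. Within WT, Ccnl1 was lower in CD4 cells by -0.42 ± 0.12 (adjusted p = 0.0125, exact p = 0.114) and Ccnl2 by -0.43 ± 0.11 (adjusted p = 0.00503, exact p = 0.0571), each in 4 of 4 animals. WT CD4 from animal 6 held the highest level of its group for both cyclins, and WT CD4 and CD8 libraries overlapped.

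The dual-specificity kinases Clk1 and Clk4 phosphorylate SR splicing proteins. Clk1 held 5371, 6178, 5637 and 7916 in WT CD4 and 6542, 6378, 6857 and 6459.7 in WT CD8 libraries. In KO libraries it held 2542, 2839, 2961 and 2944 in CD4, 4576, 2653, 2510.1 and 2777 in CD8 and 2651, 2371, 2878 and 2802 in DP cells. The lowest WT library of either subset was above the highest KO library, which was again KO CD8 from animal 1. Clk4 was at 1799.6 to 3250.4 in WT CD4, 2783 to 3168 in WT CD8, 1208 to 1233 in KO CD4, 1077 to 1786 in KO CD8 and 999 to 1487 in KO DP libraries. The described KO minus WT differences were -1.14 in CD4 and -1.11 in CD8 cells for Clk1, and -0.96 and -1.20 for Clk4. Within WT, neither kinase passed the threshold between subsets, at -0.08 ± 0.09 for Clk1 (adjusted p = 0.521, lower in CD4 in 3 of 4 animals) and -0.33 ± 0.13 for Clk4 (adjusted p = 0.0521, lower in CD4 in 3 of 4 animals). With the animal as a block Clk4 passed (adjusted p = 0.00460). Without WT CD4 from animal 6, whose levels were the highest of its group, Clk1 differed by -0.20 (adjusted p = 0.00949) and Clk4 by -0.48 (adjusted p = 0.000839).

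Nktr encodes a cyclophilin-like protein with an RS domain, Pnisr an RS-domain protein of speckles, and Son a large scaffold of speckles that promotes splicing of weak introns. Nktr held 6909, 6964, 6594 and 8653 in WT CD4 and 9264, 10527, 8870.4 and 9386 in WT CD8 libraries. In KO it held 4058, 4852, 4444 and 3643 in CD4, 5273, 4655, 5822 and 4876 in CD8 and 4527, 3647, 3623 and 4752 in DP libraries. The WT subsets did not overlap, and each stood above the KO libraries of the same subset. Within WT it was lower in CD4 by -0.39 ± 0.08 (adjusted p = 0.00122, exact p = 0.0286, 4 of 4 animals), and within KO by -0.28 ± 0.11 (adjusted p = 0.259, 3 of 4 animals).

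Pnisr held 2890.5, 3258, 2944 and 4646 in WT CD4 and 5631, 5907, 5712 and 6001 in WT CD8 libraries. In KO it held 2655, 1951, 1821 and 2136 in CD4, 3697, 1902, 1944 and 2233 in CD8 and 2966, 1406, 1298 and 2109 in DP libraries. WT CD8 libraries lay close together above all others, and animal 1 gave the highest library in each KO group. Within WT it was lower in CD4 by -0.79 ± 0.12 (adjusted p = 0.000104, exact p = 0.0286, 4 of 4 animals), and within KO by -0.15 ± 0.21 (adjusted p = 0.821). KO minus WT, the described differences were -0.67 in CD4 and -1.31 in CD8 cells for Pnisr, and -0.78 and -0.89 for Nktr.

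Son held 32434, 29198, 28952 and 32503 in WT CD4 and 24907, 27228, 24408 and 23574 in WT CD8 libraries. In KO it held 26787, 27424, 26853 and 26205 in CD4, 27599, 24916, 25198 and 23178 in CD8 and 25379, 20780.4, 14726 and 21847 in DP libraries. WT CD4 libraries were above all others, KO and WT CD8 libraries overlapped, and KO DP from animal 3 was the lowest of the 20. The described KO minus WT difference was -0.20 ± 0.07 in CD4 and 0.01 ± 0.08 in CD8 cells, so lower RNA in KO cells does not hold for Son in CD8 cells, although quantile normalization gave -0.14 there. Within WT it was higher in CD4 by 0.30 ± 0.06 (adjusted p = 0.000895, exact p = 0.0286, 4 of 4 animals), and within KO by 0.09 ± 0.08 (adjusted p = 0.698).

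Set side by side, every KO library was below every WT library for 9 of 10 members in CD4 cells, where 13.3% of 12391 genes tested were, and for 7 of 10 in CD8 cells, where 15.5% of 12383 genes were. These counts follow from how the members were picked. The exceptions were Kcnq1ot1 in CD4, and Malat1, Kcnq1ot1 and Son in CD8 cells. The median member difference was -0.92 in CD4 cells, against -0.05 over all genes tested, and -1.15 in CD8 cells, against -0.04. In CD8 cells 8 of 10 members lay below 0, and in CD4 cells 10 of 10. Without KO CD8 from animal 1 the CD8 median was -1.34, and without WT CD4 from animal 6 the CD4 median was -0.78. These comparisons share no library, but same-numbered cells of both subsets are taken to come from 1 animal.

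Between WT CD4 and WT CD8 cells, 8 of 10 members passed the threshold (adjusted p under 0.05), against 44.5% of 12559 genes tested. Malat1, Kcnq1ot1 and Son were higher in CD4 cells, 3 of 10 against 22.3% of all genes. Neat1, Ccnl1, Ccnl2, Nktr and Pnisr were lower in CD4 cells, 5 of 10 against 22.2%. The median member difference was -0.36, and that of all genes -0.01. Fitting all 20 libraries jointly left 4 of 10 past the threshold, where 1610 genes passed in place of 5592, with Malat1 (adjusted p = 0.294), Ccnl1 (0.164), Ccnl2 (0.0823) and Son (0.118) no longer past it. A fit without the variance trend lost Malat1 (0.0704) and Ccnl1 (0.0657), and DESeq2 lost Ccnl1 (0.0551). Blocking on the animal gave 9 of 10 members and 6134 genes, and leaving out WT CD4 from animal 6 gave 10 of 10 and 5630 genes. Of 9 immediate early genes, 6 were higher in WT CD4 than in WT CD8 cells, with a list median of 0.49, and their part in the member differences was not tested.

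Between KO CD4 and KO CD8 cells, limma called 0 of 10 members, against 4.22% of 12189 genes, and 2 members, Neat1 and Nktr, had an unadjusted p under 0.05, as did 1836 of all genes. DESeq2 and edgeR also called 0. Blocking on the animal called 1 member, Neat1, where 2305 genes passed in place of 514. The median member difference was -0.16, against -0.01 over all genes, and 9 of 10 were below 0. Without KO CD8 from animal 1, the differences of Ccnl1, Ccnl2, Clk1, Clk4 and Pnisr changed sign to 0.08, 0.02, 0.09, 0.06 and 0.07, and the median was 0.04. A difference that misses the threshold is not shown to be absent at 4 libraries a group.

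The subset difference in KO minus that in WT was itself tested. The limma interaction called 0 of 10 members, against 0.0161% of 12446 genes, with 4 members and 793 genes at an unadjusted p under 0.05, and adjusted p ran from 0.541 to 1.00. The largest was that of Kcnq1ot1, -2.04 ± 0.67 (adjusted p = 0.541), followed by Malat1 at -1.05 ± 0.42 (adjusted p = 0.662). Without KO CD8 from animal 1 the order changed, with Malat1 at -0.69 below Neat1 at 0.90 and Pnisr at 0.85 in size. The interaction was 0.64 ± 0.27 for Pnisr (adjusted p = 0.719) and -0.21 ± 0.10 for Son (adjusted p = 0.778). DESeq2 and edgeR called 0 members. With the animal as a block Pnisr passed (adjusted p = 0.0494), where 173 genes passed in place of 2.

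**Figure D2:**
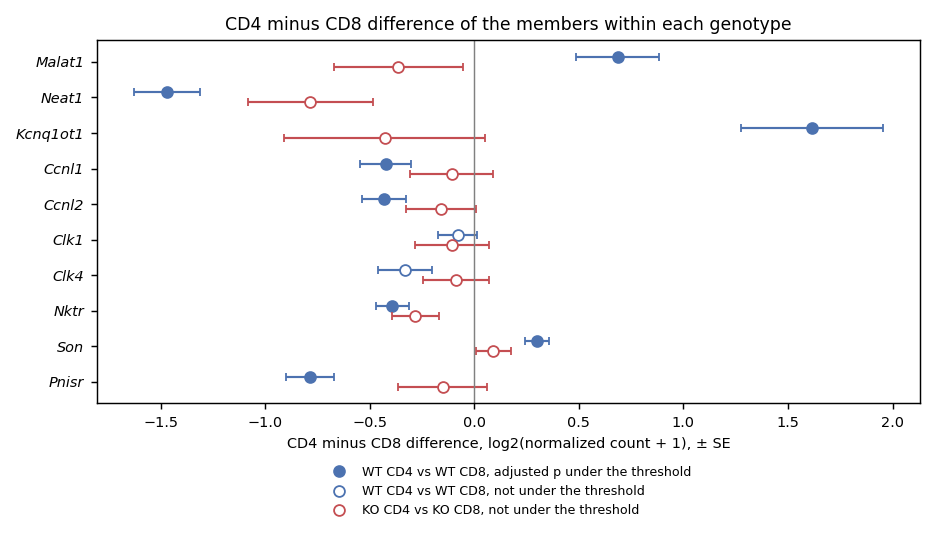
CD4 minus CD8 difference of each member on the log2 scale within WT (blue) and within KO (red), with SE, from 4 libraries a group. Filled points passed the limma threshold: 8 of 10 did so within WT and 0 of 10 within KO, and Malat1, Kcnq1ot1 and Son were higher in WT CD4 cells.

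Double-positive cells were compared with the other KO subsets, which share the animals and, across these comparisons, the DP libraries. Against KO CD8 cells, limma, DESeq2 and edgeR called 0 of 10 members, where limma called 0.00823% of 12153 genes, and 2 members, Neat1 and Nktr, and 237 genes in all had an unadjusted p under 0.05. All 10 differences were below 0, with a median of -0.32 against -0.01 over all genes. The median was -0.20 without KO CD8 from animal 1, where 6 of 10 were below 0, and also -0.20 without KO DP from animal 3. Malat1 differed by -1.05 ± 0.48, lower in DP in 4 of 4 animals (adjusted p = 0.871), and Neat1 by -0.70 ± 0.30, also in 4 of 4 (adjusted p = 0.871). Nktr differed by -0.32 ± 0.14, again lower in 4 of 4 animals (adjusted p = 0.871). Kcnq1ot1 (-0.76), Pnisr (-0.35) and Son (-0.31) were lower in 4 of 4 animals as well (adjusted p = 0.871 each). Ccnl1, Ccnl2, Clk1 and Clk4 were each higher in DP in 1 or 2 animals. Without KO CD8 from animal 1 the values for Malat1 and Neat1 were -0.69 and -0.48, and those of Ccnl1, Ccnl2, Clk1 and Clk4 changed sign to 0.02, 0.14, 0.01 and 0.03. Without KO DP from animal 3, Malat1 differed by -0.75 and Neat1 by -0.54.

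Against KO CD4 cells, limma called 0 of 10 members, where 1.95% of 12175 genes passed, and DESeq2 and edgeR also called 0. At an unadjusted p under 0.05 were 1814 genes and, of the members, Son alone, with a difference of -0.40 ± 0.17 (adjusted p = 0.303, exact p = 0.0286), lower in DP cells in 4 of 4 animals. It passed in the joint fit of all libraries (adjusted p = 0.0335), where 1459 genes passed in place of 237. Without KO DP from animal 3 the difference of Son was -0.25. Malat1 differed by -0.69 ± 0.39 (adjusted p = 0.422), and by -1.12 (adjusted p = 0.0461) without KO DP from animal 1, whose level of 12590 was the highest of the group. Without KO DP from animal 3, which stood apart, it differed by only -0.39. Neat1 was at 0.09 ± 0.28 (adjusted p = 0.895).

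The members were also compared with each other within groups. Taken as deviations from the group means over the 20 libraries, 44 of the 45 pairs of members had a Pearson r above 0, with a median of 0.54 and a range of -0.05 to 0.89. The same share over pairs of all genes was not computed. The averaged member profile was highest in KO CD8 from animal 1 (1.76), WT CD4 from animal 6 (1.38) and KO DP from animal 1 (1.32). Member pairs were not recomputed without these libraries. Of 10024 other genes, whose median r with that profile was -0.00 and whose 95th percentile was 0.626, the 10 most alike were A630001G21Rik, Fam193b, Leng8, Tmem181b-ps, Dennd1c, Vamp1, Scai, Degs2, Zc3h7a and Zfp950. Their r ran from 0.902 to 0.920 and Spearman's rho from 0.689 to 0.875 over 20 libraries. Without the libraries farthest from the median, KO CD8 from animal 1 and WT CD4 from animal 6, r ran from 0.797 to 0.894 over 18 libraries. Ranking by rho would have shared 3 of the 10 names. Over the gene lists, median r with the profile ran from -0.51 for SR proteins to 0.54 for other nuclear noncoding RNAs. The latter rests on only 2 genes, Pvt1 (0.50) and Tug1 (0.57), and the 12 SR genes ran from -0.64 to 0.70. The 23 other genes with detained introns had a median of 0.48 and ran from -0.68 to 0.80. Heat shock genes had a median r of -0.44 and immediate early genes of -0.02. The libraries share animals within a genotype, and no p is given.

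Of those genes, Leng8 differed by -0.92 ± 0.21 from WT in KO CD4 (adjusted p = 0.0168) and by -1.52 ± 0.27 in KO CD8 cells (adjusted p = 0.00487), and Fam193b by -0.83 ± 0.18 (adjusted p = 0.0144) and -1.52 ± 0.16 (adjusted p = 0.000754). KO against WT, 8 of the 10 passed in CD4 cells, where 2274 of 12391 genes did, and 9 in CD8 cells, where 3118 of 12383 did. All 10 were below 0 in both subsets. These genes were ranked in the same libraries for likeness to members that were picked on KO against WT. Their KO against WT counts and p-values are therefore a description and no fresh test. Between the WT subsets 8 of these 10 genes passed, where 44.5% of all genes did.

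Other genes, alike in their biology or placed beside the noncoding members, came from lists with 99 genes in the table, of which 94 were tested. These lists were chosen with earlier results of these data known, so their KO against WT counts and p-values are a description and no fresh test. In CD4 cells 35 passed, with 4 up and 31 down in KO, where 8.59% of all genes were higher and 9.77% lower. In CD8 cells 47 passed, 4 higher and 43 lower, where 12.6% of all genes were higher and 12.5% lower. Their medians were -0.20 and -0.25. Without WT CD4 from animal 6 the CD4 count was 12, without animals 2, 3 or 5 it was 23, 17 or 20, and without KO CD4 from animal 1 it was 21. With each library left out in turn, 628 to 2963 of all genes passed in CD4 cells, against 2274 with all libraries.

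The list nearest to the members was that of other genes with detained introns. Of 23 tested, 17 fell in KO CD4 and 18 in KO CD8 cells, with a median of -0.45 in each subset and 22 of 23 below 0. Rsrp1, an RS-domain protein gene, differed by -1.22 ± 0.19 in KO CD4 (adjusted p = 0.00503) and -1.69 ± 0.19 in KO CD8 cells (adjusted p = 0.000885). Prpf39, of the U1 snRNP, fell by 1.06 ± 0.13 in CD4 (adjusted p = 0.00198), Paxbp1 by 0.87 ± 0.14 in CD4 and 0.84 ± 0.10 in CD8 cells, and Prpf38b by 0.82 ± 0.10 in CD8 cells. In each of these cases every KO library was below every WT library. Summed levels of the list were 166385 to 176104 in KO CD4 and 214833 to 261336 in WT CD4 libraries, and 159358 to 189499 and 248424 to 255628 in KO and WT CD8 libraries.

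Among 13 kinases, cyclin L partners and speckle scaffolds, 5 fell in KO CD4 cells, and 5 fell and 1 rose in KO CD8 cells. Clk2, a kinase of the same family as Clk1 and Clk4, fell by 0.75 ± 0.19 in KO CD4 (adjusted p = 0.0267) and 1.32 ± 0.34 in KO CD8 cells (adjusted p = 0.0210). Srrm2, a core speckle scaffold, fell by 0.64 ± 0.09 (adjusted p = 0.00424) and 0.53 ± 0.10 (adjusted p = 0.00642). Srpk1, an SR protein kinase, fell by 0.40 ± 0.08 in CD4 cells, and Cdk11b, the kinase partner of cyclin L, by 0.58 ± 0.08 in CD8 cells (adjusted p = 0.00214). Dyrk1a, a kinase also found in speckles, rose by 0.43 ± 0.07 in CD8 cells (adjusted p = 0.00384).

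Of 13 SR proteins, 4 fell and 1 rose in CD4, and 6 fell in CD8 cells. Tra2a, a splicing activator, differed by -0.95 ± 0.20 and -1.01 ± 0.20, while Srsf7 fell by 0.60 ± 0.15 and 0.76 ± 0.14 and Srsf6 by 0.26 ± 0.08 and 0.51 ± 0.07 in CD4 and CD8 cells. Srsf9 rose by 0.30 ± 0.07 in CD4 cells. Of 10 paraspeckle proteins, which bind Neat1, 1 fell and 1 rose in CD4 cells: Hnrnph3 fell by 0.85 ± 0.21 and Nudt21 rose by 0.31 ± 0.09. In CD8 cells 3 fell, Hnrnph3 by 0.94 ± 0.21, Tardbp by 0.34 ± 0.10 and Ewsr1 by 0.28 ± 0.08. The list medians were 0.05 in CD4 and 0.03 in CD8 cells.

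Of 12 genes of nuclear RNA decay and m6A, 3 fell in CD4 and 5 in CD8 cells. They included Mettl3, the m6A methyltransferase (-0.81 ± 0.16 and -0.68 ± 0.10), and Zfc3h1 (-0.54 ± 0.14 and -0.79 ± 0.08) and Zcchc8 (-0.31 ± 0.08 and -0.39 ± 0.07), adaptors of the nuclear exosome. Of 7 snoRNA host RNAs, 1 fell in CD4 and 4 in CD8 cells, with Snhg1 at -0.59 ± 0.17 and -1.24 ± 0.18, Snhg5 at -1.26 ± 0.24 and Snhg12 at -1.36 ± 0.38 in CD8 cells. Of 3 other nuclear noncoding RNAs tested, Pvt1 fell in CD8 cells (-0.96 ± 0.21, adjusted p = 0.0116). Tug1, the most abundant, was at 0.09 ± 0.10 in CD4 cells (adjusted p = 0.539). Not every nuclear noncoding RNA therefore passed the threshold.

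Genes around the noncoding members were set beside them. Of 8 neighbours of Malat1 and Neat1, 2 rose in CD4 cells, and 2 rose and 1 fell in CD8 cells. Frmd8 rose by 0.33 ± 0.08 in KO CD4 (adjusted p = 0.0208) and 0.51 ± 0.06 in KO CD8 cells (adjusted p = 0.00153), Fam89b rose by 0.37 ± 0.10 and 0.38 ± 0.11, and Ehbp1l1 fell by 0.50 ± 0.09 in CD8 cells. Of 5 genes tested in the Kcnq1ot1 domain, Nap1l4, a histone chaperone, rose by 0.22 ± 0.06 in CD8 cells (adjusted p = 0.0278) and was at 0.17 ± 0.07 in CD4 cells (adjusted p = 0.100). The other 4 did not pass in either subset.

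**Figure D3:**
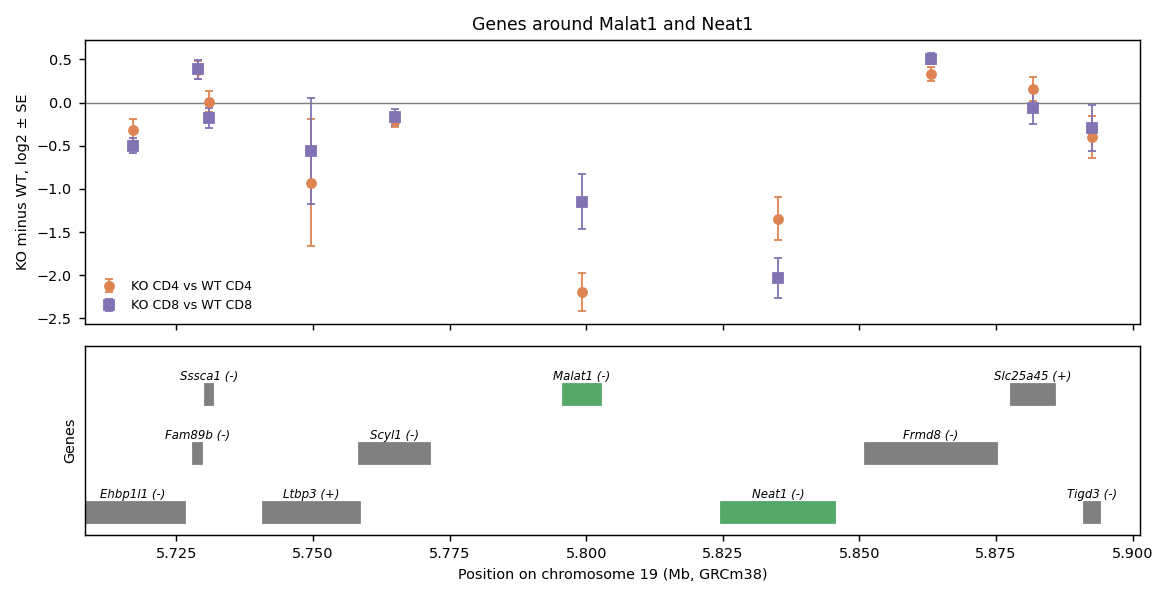
KO minus WT difference on the log2 scale, with SE, for Malat1, Neat1 and their 8 neighbours by position on chromosome 19, for CD4 (circles) and CD8 cells (squares), above the extent and strand of each gene. Malat1 (-2.20 in CD4 cells) and Neat1 (-2.03 in CD8 cells) lie below the neighbours, among which Frmd8 is higher in KO cells.

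Poly(A) selection was used, while the mature 3′ end of Malat1 is made by RNase P cleavage just before a tRNA-like RNA, mascRNA, and ends in an encoded A-rich tract. The sequence at that end is shown because it is the stretch such a selection could bind. It is chr19:5795924-5796051 on the minus strand of GRCm38.p6, from the NCBI genome, with the 58 bases of mascRNA in capitals. The longest run of A before it is 12 bases, and 17 of the last 25 bases before it are A.
Malat1 3′ end: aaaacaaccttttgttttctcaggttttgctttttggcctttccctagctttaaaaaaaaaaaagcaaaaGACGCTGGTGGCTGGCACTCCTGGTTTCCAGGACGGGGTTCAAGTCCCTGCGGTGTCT

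RefSeq promoters of 300 bases, from 250 before to 50 after the start of each gene's curated transcripts in GRCm38.p6, were matched for 7 of the 10 members. Those of Neat1, Clk1 and Pnisr were not matched. Motifs were searched on both strands, with overlapping matches counted, and capitals mark any match. The CRE TGACGTCA was present in 2 of 7 members, Ccnl1 at position -18 and Clk4 at position -65 from the start, and in 1.79% of 32851 promoters. CCAAT was in 4 of 7 members against 37.4% of all promoters, and GGGCGG, a GC box, in 4 of 7 against 35.7%. CCGGAAG, an ETS site, was in 2 of 7 against 8.86%. TATAAA (13.6%), GAANNTTC (7.86%), TGANTCA (7.81%) and CACGTG (7.15%) were in 0 of 7. A match is a description of letters only. Promoters of Ccnl1 (chr3:65958200-65958499, minus strand) and Clk4 (chr11:51262864-51263163, plus strand) are shown for the CRE, which in Ccnl1 is directly followed by a GC box. That of Kcnq1ot1 (chr7:143296498-143296797, minus strand) is shown for its 3 CCAAT boxes.
Ccnl1: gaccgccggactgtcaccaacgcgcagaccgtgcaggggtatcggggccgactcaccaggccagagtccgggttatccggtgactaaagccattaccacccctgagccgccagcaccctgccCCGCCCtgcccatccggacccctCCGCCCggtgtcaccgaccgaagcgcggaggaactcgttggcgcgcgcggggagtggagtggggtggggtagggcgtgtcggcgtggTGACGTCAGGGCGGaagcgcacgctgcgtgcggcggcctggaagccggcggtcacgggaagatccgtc
Clk4: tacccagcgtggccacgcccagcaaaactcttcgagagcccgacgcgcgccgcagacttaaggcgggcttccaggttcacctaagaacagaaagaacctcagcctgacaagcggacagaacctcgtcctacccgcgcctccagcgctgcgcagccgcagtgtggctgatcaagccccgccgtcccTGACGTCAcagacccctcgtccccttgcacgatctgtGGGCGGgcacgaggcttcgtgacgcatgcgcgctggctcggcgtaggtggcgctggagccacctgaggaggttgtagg
Kcnq1ot1: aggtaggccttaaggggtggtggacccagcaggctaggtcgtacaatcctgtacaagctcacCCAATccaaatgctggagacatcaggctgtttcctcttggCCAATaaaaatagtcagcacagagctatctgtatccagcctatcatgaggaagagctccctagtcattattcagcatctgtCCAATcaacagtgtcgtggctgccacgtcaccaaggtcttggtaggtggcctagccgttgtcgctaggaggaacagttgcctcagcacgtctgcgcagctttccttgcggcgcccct
The Ccnl1 window is 71.0% G and C with 37 CpG and that of Clk4 65.3% with 30, against 53.3% and 9 for Kcnq1ot1 and 47.0% and 10 for Malat1. The median of all promoters is 52.7% with 7 CpG.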

How the data were processed

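The authors aligned the reads, obtained from poly(A)-selected, strand-specific libraries, to GRCm38 (mm10) with STAR (2.7.2b in the submitters' processing notes). Exon pairs were counted strand by strand and scaled by DESeq2 size factors. The signal of the deposited table is normalized counts for 17101 genes in 20 libraries. Dividing out each library's factor returned whole reads, within 0.01, for 100% of values. Genes with a mean of at least 10 in the libraries compared were tested with limma 3.58.1 (trend) on log2 of the normalized count plus 1, in R 4.3.3, and p-values were adjusted by Benjamini-Hochberg over all genes tested, with a threshold of 0.05. Alternatives were DESeq2 1.42.0 and edgeR 4.0.16 (quasi-likelihood) on whole reads, a pseudocount of 10, no filter, a mean of at least 50, quantile normalization, a common 75th percentile, a joint fit of all 20 libraries, no variance trend, blocking on the replicate number, and leaving out single libraries. Tables and figures used Python 3.11.15, pandas 2.3.3, scipy 1.17.1 and matplotlib 3.10.9. Exact permutation tests over libraries were two-sided and did not use the pairing by animal. The fits were tested on simulated data.

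Labels gave each library its genotype, subset and number. Same-numbered libraries of a genotype deviated together, with Pearson r of 0.412 to 0.498 between KO CD4 and CD8, 0.271 to 0.457 between KO CD4 and DP, 0.338 to 0.538 between KO CD8 and DP and 0.120 to 0.196 between WT subsets, so numbers pair libraries within a genotype. For the numbers that KO and WT share, r was -0.07 to 0.11. Lengths and transcripts came from RefSeq curated and GENCODE vM21 annotation. Named genes outside the members were, per list and comparison, up to 3 with the largest rise or fall among those past the threshold, or the most abundant where none passed. The 10 genes most like the members were ranked by Pearson r among genes with a mean of at least 100. The members and lists were chosen with earlier results of these data known. Nono, Ogt, Mirg, Firre, Ftx, Jpx and Zfas1 of the lists and Ighm, Hbb-bs, Hba-a1, Hba-a2, Alas2 and Klra8 of the markers were not analysed here.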

Additional observations from a re-analysis of the deposited data

Results flagged for a closer look

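Of 70 sets of 4 libraries looked at, 6 held a library far from the other 3, and chance gives about 1 in 20 such sets. In KO CD8 from animal 1, Malat1 was at 22537, Ccnl2 at 4390.1 and Clk1 at 4576, each above the other libraries of the group, and the summed member level was 78850.2. These 4 values come from 1 library. Kcnq1ot1 was at 1239 in KO CD4 from animal 2, above the rest of its group. Ccnl2 was at 6433 in WT CD8 from animal 2, below 3 libraries that lay close together. The cause was not tested for any of them.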

How the results depend on the processing

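The described KO against WT medians of the members kept their sign under every setting tried for them, at -0.99 to -0.78 in CD4 and -1.34 to -1.02 in CD8 cells with 1 library left out. Exon counts and 4 libraries a group limit what can be said: differences within the spread between libraries could be missed, and intron reads were not counted. For the changes below, the cause was not tested, except that leaving out a library lowers the number of libraries.

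Numbers of genes past the threshold changed with the fit, the block and the libraries used. In the joint fit of all libraries they were 1610 between WT CD4 and WT CD8 cells, 885 between KO CD4 and KO CD8, 1459 between KO DP and KO CD4, 1 for the interaction, 1304 for KO against WT in CD4 and 2017 in CD8 cells. Members past it in that fit were 4 between WT subsets and 1 between KO DP and KO CD4. DESeq2 gave 956 between KO CD4 and KO CD8, 3 between KO DP and KO CD8, 728 between KO DP and KO CD4 and 21 for the interaction. edgeR gave 1 and no filter 7 for the interaction. Without the variance trend the counts were 299 between KO CD4 and KO CD8, 124 between KO DP and KO CD4, 0 for the interaction and 1403 for KO against WT in CD4 cells, where 20 list genes passed.

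With the replicate number as a block, 2305 genes passed between KO CD4 and KO CD8, 860 between KO DP and KO CD4 and 173 for the interaction. The block called 1 member between KO CD4 and KO CD8 (Neat1) and 1 in the interaction (Pnisr), and added Clk4 between WT subsets. It changed no other member call. For KO against WT the block used the shared numbers 2 and 3, with all other libraries in 1 level.

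With each library left out in turn, counts were 233 to 486 between KO CD4 and KO CD8, 84 to 279 between KO DP and KO CD4, 0 to 5 for the interaction, 628 to 2963 for KO against WT in CD4 and 1633 to 4092 in CD8 cells. List genes past the threshold were 12 to 36 in CD4 cells, and members between KO DP and KO CD4 0 to 1.

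Member differences that changed sign with 1 library left out were these. Between KO CD4 and KO CD8, Ccnl1 was at -0.23 to 0.078, Ccnl2 -0.26 to 0.020, Clk1 -0.20 to 0.091, Clk4 -0.18 to 0.064 and Pnisr -0.26 to 0.068. Between KO DP and KO CD8, Ccnl1 was at -0.28 to 0.024, Ccnl2 -0.14 to 0.14, Clk1 -0.28 to 0.013 and Clk4 -0.22 to 0.033. Between KO DP and KO CD4, Neat1 was at -0.12 to 0.31, Kcnq1ot1 -0.71 to 0.093, Ccnl1 -0.15 to 0.047, Clk4 -0.14 to 0.055 and Nktr -0.11 to 0.025. The interaction of Clk1 was at -0.12 to 0.17, and 0.0043 after quantile normalization. None of these subset differences or interactions passed the threshold with all libraries. For Son, the described KO minus WT difference in CD8 cells, near 0 with all libraries, was at -0.034 to 0.052. Among the genes most like the members, 8 of 10 were shared after quantile normalization and 3 of 10 with Spearman's rho.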
